A study of Mus musculus with 8 samples.

Results

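Zscan4c, Zscan4d, Zscan4e, Zscan4f, Usp17la, Usp17lc, Usp17ld, Usp17le and Zfp352 are 9 mouse genes best known from the embryo just after its first cleavage and from the rare embryonic stem cells that pass through a two-cell-like state. They were taken by symbol from the 32334 genes listed, with no filter on their level, and all 9 had a row. The genes were selected on the dCD and WT values in EpiLC, so for that contrast their values are given as a description with no test, and tests are kept for EpiSC, whose libraries did not enter the choice. Bulk RNA-seq had been made in the male mouse embryonic stem cell line R1 and in an R1-derived clonal line, Mll3/4 dCD, whose MLL3 (Kmt2c) and MLL4 (Kmt2d) carry point mutations that abolish their histone methyltransferase activity while the proteins remain. The 4 groups were dCD EpiLC, WT EpiLC, dCD EpiSC and WT EpiSC, with 2 libraries each. EpiLC (epiblast-like cells) were taken at day 2 of differentiation with 20 ng/ml activin A, 12 ng/ml bFGF and knockout serum replacement, and EpiSC (epiblast stem cells) after at least 8 days with the same amounts of activin A and bFGF. As dCD is 1 clonal line, its genotype and its clone cannot be told apart, and the labels do not say whether the 2 libraries of a group came from separate cultures, so all p values measure only the spread between these libraries.

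ZSCAN4 proteins carry a SCAN domain and zinc fingers, and in mouse embryonic stem cells they are known for short bursts of expression and for telomere lengthening by recombination. USP17-like proteins are deubiquitinating enzymes encoded by a recently expanded mouse gene cluster, and Zfp352 encodes a zinc finger protein of the early embryo. In mouse cells these genes are known targets of the homeodomain factor DUX, which opens the embryonic genome and drives the two-cell-like state. EpiLC correspond to the early post-implantation epiblast and EpiSC to a later, primed one.

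The Zscan4 and Usp17l members lie on chromosome 7 in 2 separate clusters, and Zfp352 lies on chromosome 4 (GRCm38). In order along the chromosome, Zscan4c (ENSMUSG00000054272) occupies chr7:11005745-11010547 on the + strand, Zscan4d (ENSMUSG00000090714) chr7:11161374-11166159 on the - strand, Zscan4e (ENSMUSG00000095936) chr7:11306378-11310682 on the - strand and Zscan4f (ENSMUSG00000070828) chr7:11397915-11402318 on the + strand. Usp17ld (ENSMUSG00000057321) occupies chr7:103249737-103252505 on the - strand, Usp17lc (ENSMUSG00000058976) chr7:103415072-103419880 on the + strand, Usp17le (ENSMUSG00000043073) chr7:104768049-104777470 on the - strand and Usp17la (ENSMUSG00000054568) chr7:104857009-104862667 on the + strand. Zfp352 (ENSMUSG00000070902) occupies chr4:90218820-90225702 on the + strand. All 9 are annotated as protein coding.

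Members of a family are near-identical copies. The coding sequences of Zscan4c and Zscan4f (1518 bases each) are 99.6% identical, Zscan4d is 97.69% identical to each of Zscan4c and Zscan4f, and Zscan4e is 96.57% identical to Zscan4d. Among the Usp17l members, Usp17lc and Usp17ld (1635 bases each) are 98.41% identical, whereas Usp17ld and Usp17le are 89.75% identical. Of the 31-base words in each gene's transcripts, 91.5% for Zscan4c, 65.0% for Zscan4d, 93.7% for Zscan4e and 91.7% for Zscan4f also occur in another gene, and 38.9% for Usp17la, 60.7% for Usp17lc, 65.7% for Usp17ld, 49.1% for Usp17le and 21.5% for Zfp352. Reads from such stretches cannot be assigned to 1 copy, so the level of a single copy is uncertain and the sum over a family is the safer measure.

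The promoters are near-copies as well, and a few are shown because they hold what the family members share besides their pattern of expression. RefSeq (GRCm38.p6) gave windows of 300 bases around the gene start for 7 of the 9 members, all but Zscan4e and Usp17le. Within the Zscan4 windows, a run of 55 bases was identical in Zscan4c, Zscan4d and Zscan4f and occurred in 4 of the 32851 promoter windows (0.0122%), the other being Zscan4b. Within the Usp17l windows, a run of 44 bases was identical in Usp17la, Usp17lc and Usp17ld and occurred in no other of the 32851 windows. The Zfp352 window instead held 6 copies of an 18-base unit that no other window contained. Capitals mark these runs and units in Zscan4d (chr7:11166099-11166398, - strand), Zscan4f (chr7:11397665-11397964, + strand), Usp17lc (chr7:103416446-103416745, + strand), Usp17la (chr7:104856766-104857065, + strand) and Zfp352 (chr4:90218570-90218869, + strand), each written 5′ to 3′ on the strand of the gene.
Zscan4d: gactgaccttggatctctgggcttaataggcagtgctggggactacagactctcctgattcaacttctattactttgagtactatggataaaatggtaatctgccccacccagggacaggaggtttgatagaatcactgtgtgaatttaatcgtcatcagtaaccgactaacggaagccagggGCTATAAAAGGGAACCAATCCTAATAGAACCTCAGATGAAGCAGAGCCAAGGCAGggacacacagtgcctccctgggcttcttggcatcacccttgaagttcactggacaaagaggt
Zscan4f: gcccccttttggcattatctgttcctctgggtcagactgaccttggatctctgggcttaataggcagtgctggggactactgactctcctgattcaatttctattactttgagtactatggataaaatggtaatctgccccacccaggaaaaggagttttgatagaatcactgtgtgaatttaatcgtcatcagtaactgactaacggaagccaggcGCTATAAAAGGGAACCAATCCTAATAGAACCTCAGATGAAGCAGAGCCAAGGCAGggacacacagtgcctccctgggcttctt
Usp17lc: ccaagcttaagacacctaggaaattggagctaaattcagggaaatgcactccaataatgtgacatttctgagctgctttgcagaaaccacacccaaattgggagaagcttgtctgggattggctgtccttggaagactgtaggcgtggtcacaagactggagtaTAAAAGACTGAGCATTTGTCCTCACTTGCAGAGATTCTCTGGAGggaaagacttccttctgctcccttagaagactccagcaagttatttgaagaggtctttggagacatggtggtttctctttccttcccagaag
Usp17la: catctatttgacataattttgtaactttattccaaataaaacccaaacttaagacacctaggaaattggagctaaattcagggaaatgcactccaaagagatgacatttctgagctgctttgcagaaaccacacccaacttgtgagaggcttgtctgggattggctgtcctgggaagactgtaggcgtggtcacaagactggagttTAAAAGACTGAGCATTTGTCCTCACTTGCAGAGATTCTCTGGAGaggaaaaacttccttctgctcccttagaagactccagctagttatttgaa
Zfp352: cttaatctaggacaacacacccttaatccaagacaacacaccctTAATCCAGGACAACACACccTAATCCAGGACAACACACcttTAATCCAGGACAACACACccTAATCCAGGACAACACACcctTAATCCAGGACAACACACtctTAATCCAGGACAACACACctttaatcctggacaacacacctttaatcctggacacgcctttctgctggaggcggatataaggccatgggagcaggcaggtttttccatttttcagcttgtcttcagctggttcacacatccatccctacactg
Over their overlap, the Zscan4 windows were 97.23% to 99.28% identical and the Usp17l windows 94.96% to 96.76%. Short motifs were counted on both strands. The TATA box letters TATAAA occurred once each in the windows of Zscan4c, Zscan4d, Zscan4f, Usp17lc and Usp17ld, in the Zscan4 genes near the start of the shared run and in Usp17lc and Usp17ld overlapping its start, against 13.6% of all windows. The letters GATTNAATC, used for a DUX core motif, occurred in 0.268% of all windows and in none of the 7, and TGCACAC, used for a ZSCAN4 motif, in 4.40% of all windows and in none of the 7.

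All values below are deposited transcript abundances on a TPM scale with a further factor per library, and a log2 difference is that of log2(value + 1), which understates the change of low genes. Column sums ran between 813537 and 1033290, and 42.2% of all values in the tables were 0. As 4 genes with a mean of at least 50 were also listed at 0 in some library, a 0 is given as listed and is not read as absence. The targeted genes are not a check of the label, since the dCD alleles change residues and not transcript level. Kmt2c averaged 4.27 ± 2.40 in dCD EpiLC and 4.67 ± 1.58 in WT EpiLC (SD, n = 2 each), and Kmt2d averaged 5.16 ± 3.44 in dCD EpiLC and 5.65 ± 2.12 in WT EpiLC. Both were lower in dCD replicate 1 and WT replicate 2 than in the other library of their EpiLC group. With a linear model in limma and Benjamini-Hochberg adjustment, 961 of 12717 genes tested were higher and 327 lower in dCD than in WT EpiLC (7.56% and 2.57%), and 963 were higher and 879 lower in dCD than in WT EpiSC (7.57% and 6.91%). Leaving out 1 library at a time moved the total between 358 and 3280 in EpiLC and between 507 and 3016 in EpiSC.

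Transcripts of all 4 Zscan4 members were abundant in dCD EpiLC, close to 0 in WT EpiLC and listed at or near 0 in EpiSC of both genotypes. Zscan4f, the most abundant copy, had 19.7 and 18.5 in dCD EpiLC, against 0.852 and 0.566 in WT EpiLC. Zscan4e had 7.78 and 9.84 in dCD EpiLC, against 0.233 and 0.163 in WT EpiLC. Zscan4c had 8.77 and 7.06 in dCD EpiLC, against 0.104 and 0.235 in WT EpiLC. For these copies the lower dCD library stood 21.7-fold to 33.4-fold above the higher WT library, and the groups did not overlap. Zscan4d, the copy with the most sequence of its own, had 5.80 and 5.06 in dCD EpiLC, against 0.0682 and 0.181 in WT EpiLC. The log2 differences were 3.56 ± 0.13 (SE) for Zscan4f, 3.03 ± 0.13 for Zscan4e, 2.93 ± 0.13 for Zscan4c and 2.51 ± 0.12 for Zscan4d. The SEs here and for the other members pool the spread over all groups. The EpiSC libraries were at or near 0 for these genes and added little spread, so the SEs may understate the spread within EpiLC. Summed over the 4 copies, the level was 41.3 ± 1.11 in dCD EpiLC and 1.20 ± 0.0793 in WT EpiLC (SD, n = 2 each), a ratio of 34.4 and a log2 difference of 4.26 ± 0.11 (SE). In bulk libraries such a difference can come from more cells in which the genes are on or from more RNA per cell, and these cannot be told apart.

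The Usp17l members were lower in absolute level and followed the same order of groups in EpiLC. Usp17le, the most abundant, had 2.13 and 2.46 in dCD EpiLC, against 0.168 and 0.138 in WT EpiLC. Usp17lc had 1.10 and 1.21 in dCD EpiLC, against 0.0499 and 0.0510 in WT EpiLC. The lower dCD library was 12.7-fold above the higher WT library for Usp17le and 21.6-fold for Usp17lc. Usp17la had 0.5997 and 0.885 in dCD EpiLC, against 0.0562 and 0.0771 in WT EpiLC. Usp17ld had 0.478 and 0.475 in dCD EpiLC, and was listed at 0 and at 0.0199 in WT EpiLC. None of the 4 overlapped between genotypes, and the 2 dCD libraries of Usp17ld were nearly equal. The log2 differences were 1.51 ± 0.11 (SE) for Usp17le, 1.04 ± 0.10 for Usp17lc, 0.70 ± 0.12 for Usp17la and 0.55 ± 0.10 for Usp17ld. The summed level was 4.67 ± 0.510 in dCD EpiLC and 0.280 ± 0.00878 in WT EpiLC (SD, n = 2 each), a ratio of 16.7 and a log2 difference of 2.14 ± 0.12 (SE).

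Zfp352 was the lowest member, with 0.303 and 0.220 in dCD EpiLC, against 0.0241 and a listed 0 in WT EpiLC. Its log2 difference was 0.32 ± 0.10 (SE). Both dCD values lay above both WT values for 9 of 9 members, against 24.1% of the 21478 genes above 0 in EpiLC, an order that the selection itself used. The test across genes kept those that reached 1 in at least 2 libraries. Of the 9, 6 did so, all of them through the dCD EpiLC libraries. Usp17la, Usp17ld and Zfp352 stayed below it. The size of a log2 difference at these levels depends on the added constant. With a constant of 0.1 in place of 1 it was 4.99 for the Zscan4 sum, 3.65 for the Usp17l sum and 1.69 for Zfp352, and with a constant of 5 it was 2.90, 0.87 and 0.070. Without EpiLC dCD replicate 1 and WT replicate 2, in which Kmt2c and Kmt2d were low, it was 4.20 for the Zscan4 sum, 2.24 for the Usp17l sum and 0.25 for Zfp352.

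**Figure D1:**
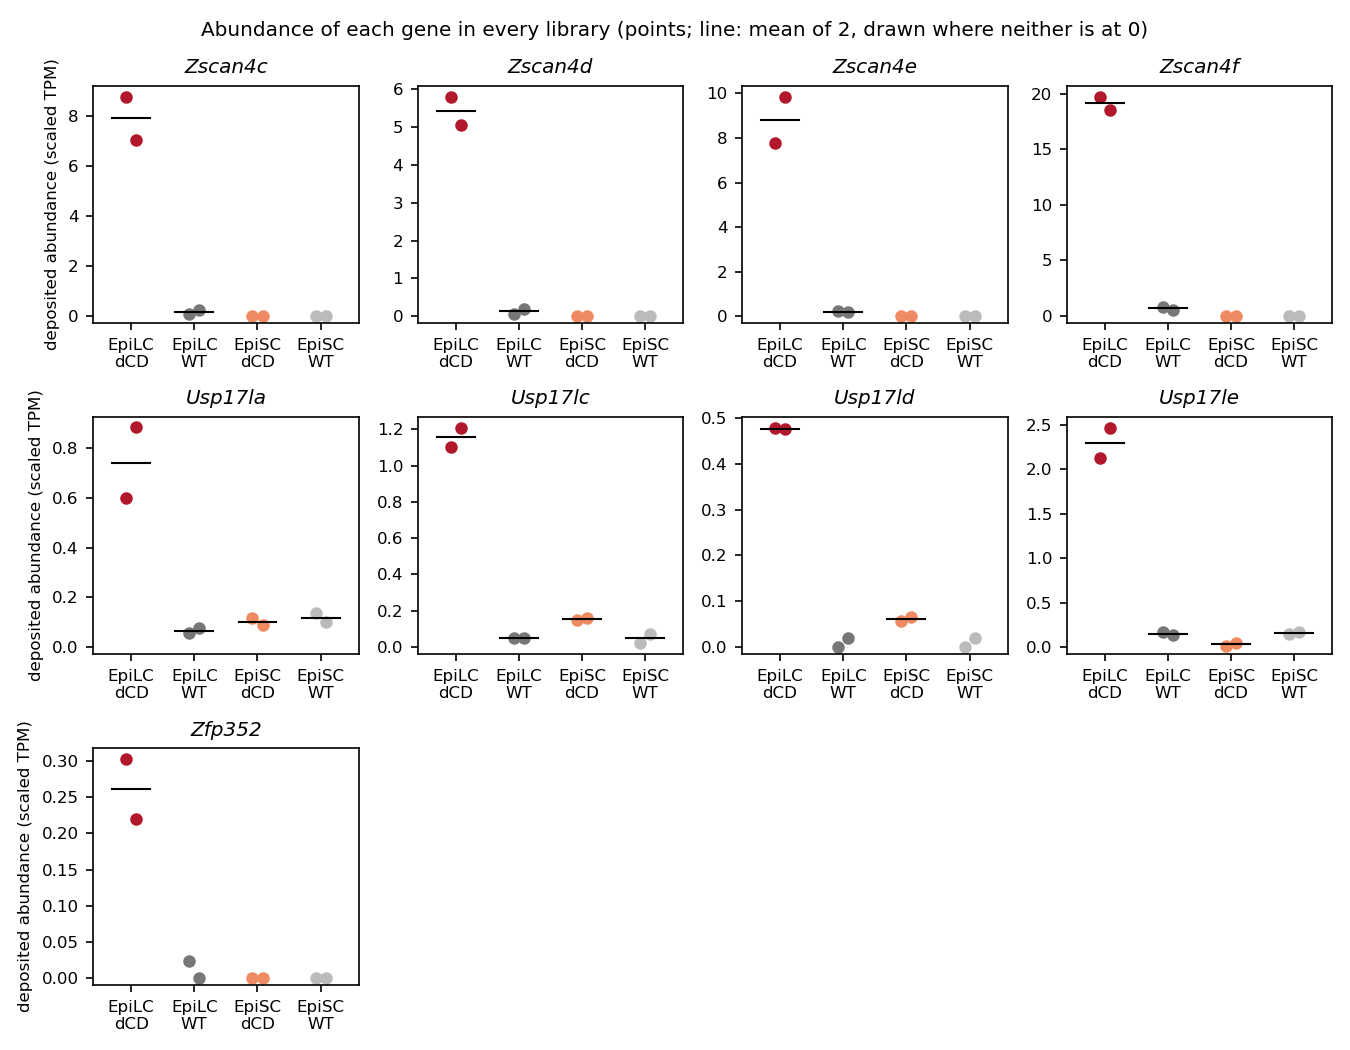
Deposited abundance of each of the 9 genes (vertical axes, scaled TPM, 1 scale per panel) in the 8 libraries, by stage and genotype; points are libraries and lines are means of 2, left out where a library is listed at 0. In every panel the 2 dCD EpiLC points stand above all others, from 18.5 and 19.7 for Zscan4f to 0.220 and 0.303 for Zfp352.

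The make-up of each family was compared next, as shares of the summed level of its 4 members in EpiLC. Zscan4f took 46.8% and 45.8% of the Zscan4 sum in dCD EpiLC, against 67.8% and 49.4% in WT EpiLC. Zscan4e took 18.5% and 24.3% in dCD EpiLC and 18.5% and 14.3% in WT EpiLC, so its ranges met. Usp17le took 49.4% and 49.0% of the Usp17l sum in dCD EpiLC, against 61.2% and 48.3% in WT EpiLC. Usp17lc took 25.6% and 24.0% in dCD EpiLC, against 18.2% and 17.8% in WT EpiLC. The same copy was the leading one in each family in both genotypes. The WT shares rest on summed levels near 1 or below and on reads shared between copies, and no test was made of them.

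**Figure D2:**
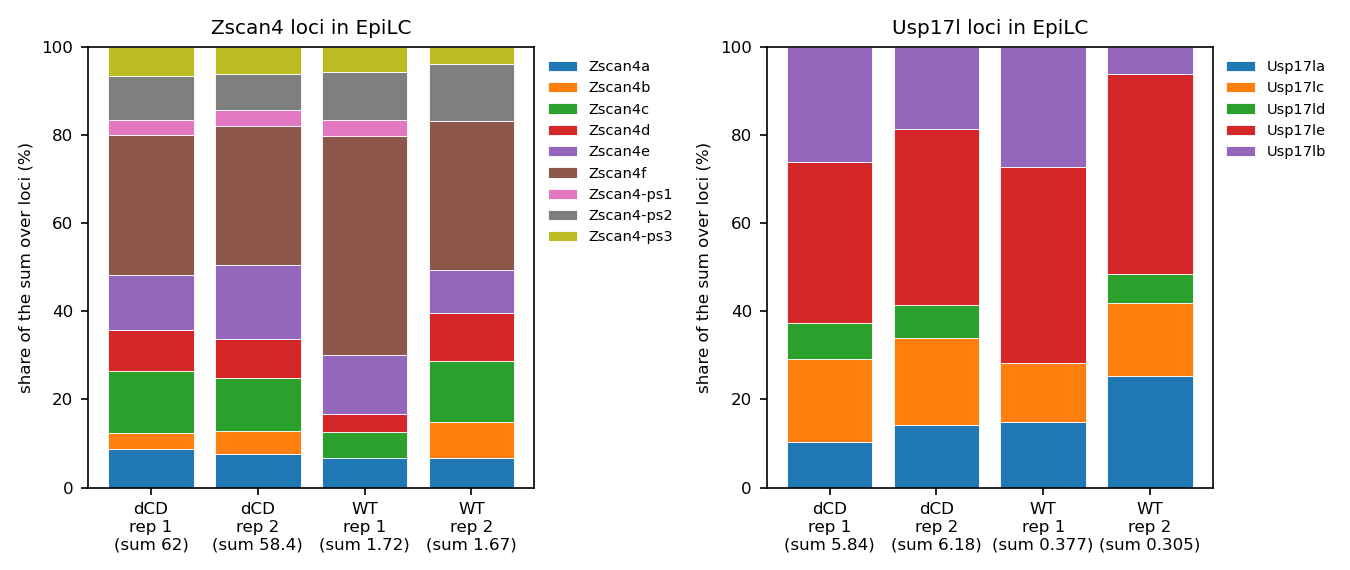
Share of each locus (percent, stacked bars) in the summed abundance of all 9 Zscan4 loci and of 5 Usp17l loci in the 4 EpiLC libraries, dCD left of WT, with the sum under each bar. The sums were 62.0 and 58.4 in dCD and 1.72 and 1.67 in WT for Zscan4, and Zscan4f formed the largest band in all 4 bars.

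The loci of both families that are not among the 9 had the same order in EpiLC. Zscan4a, annotated as a pseudogene, had 5.47 and 4.46 in dCD EpiLC, against 0.113 and 0.114 in WT EpiLC. Zscan4-ps2 had 6.17 and 4.73 in dCD EpiLC, against 0.185 and 0.215 in WT EpiLC. Usp17lb had 1.53 and 1.15 in dCD EpiLC, against 0.103 and 0.0189 in WT EpiLC. In all, 6 of 7 such loci had both dCD values above both WT values, against 24.1% of the 21478 genes above 0 in EpiLC. The other, Usp17le-ps, was listed at 0 in all 8 libraries and could show no order. Over all 9 Zscan4 loci the sum was 60.2 ± 2.53 in dCD EpiLC and 1.69 ± 0.0313 in WT EpiLC (SD, n = 2 each). These loci share sequence with the 9 genes (Zscan4f and Zscan4-ps2 are 99.74% identical over the coding sequence), so they do not count as separate evidence.

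In EpiSC the difference between genotypes seen in EpiLC was not found. Zscan4c, Zscan4d, Zscan4f and Zfp352 were listed at 0 in all 4 EpiSC libraries, and Zscan4e at 0 in all but dCD replicate 2, where it had 0.0162. The Zscan4 sum differed by 0.01 ± 0.11 on the log2 scale (SE, 95% interval -0.25 to 0.27, limma adjusted p = 0.968). Libraries at 0 show no spread, so this interval rests on the spread estimated over all groups. The deposited values hold no depth, so how low an amount of Zscan4 RNA could have been detected in EpiSC is unknown.

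The Usp17l members, by contrast, kept a low level in EpiSC of both genotypes, and no copy passed the test. Their sum was 0.348 ± 0.0123 in dCD EpiSC and 0.337 ± 0.0364 in WT EpiSC (SD, n = 2 each), a log2 difference of 0.01 ± 0.12 (SE, 95% interval -0.26 to 0.29, limma adjusted p = 0.967). Usp17lc had 0.148 and 0.161 in dCD EpiSC, against 0.0247 and 0.0731 in WT EpiSC. Usp17ld had 0.0564 and 0.0662 in dCD EpiSC, and was listed at 0 and at 0.0199 in WT EpiSC. Both dCD values were the higher ones for these 2 copies. Usp17le had the opposite order, with 0.0167 and 0.0428 in dCD EpiSC, against 0.150 and 0.169 in WT EpiSC. Usp17la had 0.118 and 0.0872 in dCD EpiSC, against 0.136 and 0.101 in WT EpiSC, and its groups overlapped. The log2 differences were 0.14 ± 0.10 for Usp17lc (SE, limma adjusted p = 0.451), 0.07 ± 0.10 for Usp17ld (limma adjusted p = 0.717), -0.17 ± 0.11 for Usp17le (limma adjusted p = 0.374) and -0.02 ± 0.12 for Usp17la (limma adjusted p = 0.944). Thus, of the 5 members above 0 in some EpiSC library, 2 had both dCD values above both WT values and 1 had both below, against 28.5% and 28.1% of the 21250 genes above 0 in EpiSC. With limma, 0 of 9 members were called in EpiSC, and 0 had an unadjusted p under 0.05. Of the 12717 genes past the filter, which hold 6 of the 9, 7.57% were called higher and 6.91% lower in dCD EpiSC. Zscan4c, Zscan4d, Zscan4f and Zfp352, listed at 0 throughout EpiSC, could not be called. The other members had at most 0.169, where log2(value + 1) hardly changes, so these outcomes do not show that the genotypes were alike. None was called under the 17 alternative settings either, with the lowest adjusted p at 0.0714 for Usp17le with a constant of 0.1, whose other settings reached up to 0.705.

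Set side by side between stages, the Usp17l sum was 0.280 in WT EpiLC and 0.337 in WT EpiSC, and the Zscan4 sum was 1.20 in WT EpiLC and listed at 0 in both WT EpiSC libraries. In dCD cells the Usp17l sum was 4.67 in EpiLC and 0.348 in EpiSC, and the Zscan4 sum was 41.3 in EpiLC and was listed at 0 and at 0.0162 in the 2 EpiSC libraries. The stages come from separate tables that look scaled apart, and no test was made between them.

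**Figure D3:**
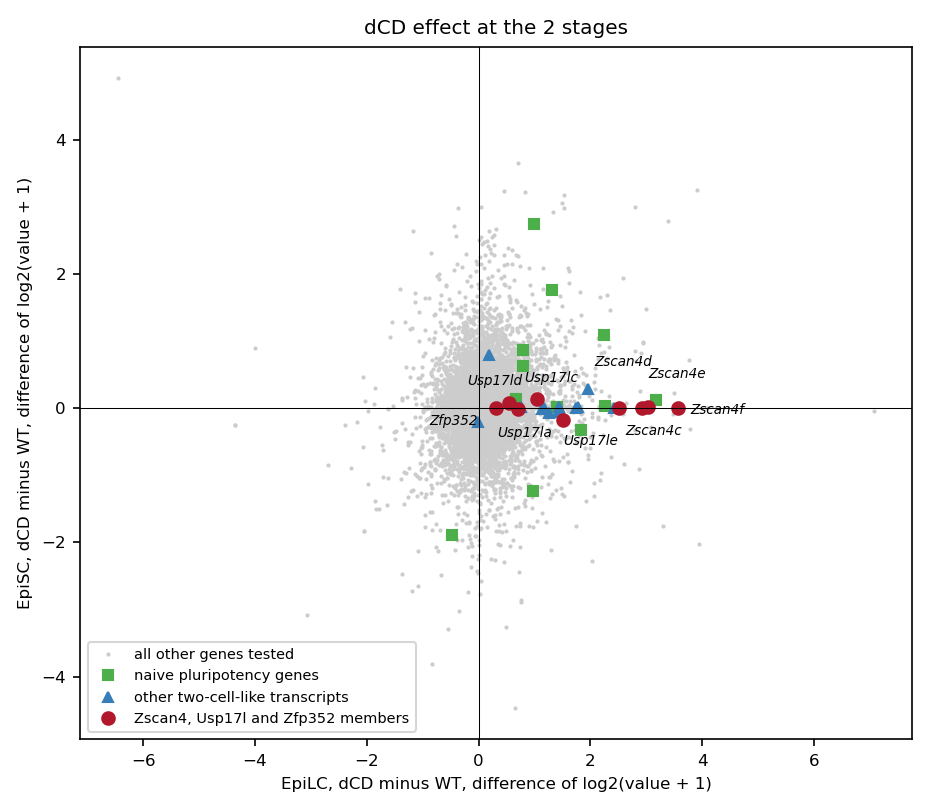
Difference of log2(value + 1), dCD minus WT, in EpiLC (horizontal) and EpiSC (vertical) for the 9 genes (red circles), other two-cell-like transcripts (blue triangles), naive pluripotency genes (green squares) and all other genes tested (grey points). The 9 genes lie between 0.32 and 3.56 on the horizontal axis and between -0.17 and 0.14 on the vertical one; 3 of them are plotted although they were below the filter.

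Other transcripts of the two-cell-like state went with the 9 genes in EpiLC. Of 44 further transcripts listed for this state, 42 had a row and 35 were above 0 in EpiLC. With limma and no filter on level, 16 of the 35 rose in dCD EpiLC and 0 fell, against 3.48% of the 21478 genes above 0 in EpiLC called higher. Both dCD values were above both WT values for 31 of the 35 and below for 0, against 24.1% of genes above. The list was chosen with earlier results of these data known, so both counts are given as a description. Of the 42, 17 were listed at 0 in both WT EpiLC libraries and 7 in both dCD EpiLC libraries. Part of the 35 thus entered only through dCD EpiLC, and for those the order was set in advance. Of the 13 that passed the filter, 11 did so only through the dCD EpiLC libraries and were the 11 called higher with the filter, so that count was set by the filter and is not read further. Zscan4a, Zscan4b and Usp17lb are among the list and share sequence with the 9 genes. Other listed transcripts lie close together under related names, such as Tdpoz1 to Tdpoz5 on chromosome 3. Sequence shared among these was not measured, so the counts are not taken as counts of separate units.

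Zscan4a had a log2 difference of 2.42 ± 0.12 (SE, limma adjusted p = 0.00149). Tmem92, which encodes a transmembrane protein, had 3.46 and 3.10 in dCD EpiLC, against 0.147 and 0.0561 in WT EpiLC, a log2 difference of 1.96 ± 0.12 (SE, limma adjusted p = 0.00184). Gm5662, a predicted gene on chromosome 12, had 2.73 and 2.59 in dCD EpiLC, and was listed at 0 and at 0.142 in WT EpiLC, a log2 difference of 1.77 ± 0.11 (SE, limma adjusted p = 0.00149). Gm4027, also on chromosome 12, had 1.88 and 1.91 in dCD EpiLC, against 0.0339 and 0.0621 in WT EpiLC, a log2 difference of 1.47 ± 0.10 (SE, limma adjusted p = 6.6e-05). The SEs of these 4 differences are from the fit with the filter and the adjusted p values from the limma fit without it. Both fits pool the spread over all groups, which were near 0 for these transcripts except in dCD EpiLC. With each stage fitted alone, with the filter, limma adjusted p values were 0.0158 (Zscan4a), 0.0161 (Tmem92), 0.0172 (Gm5662) and 0.0169 (Gm4027). These 4 were named for the smallest p in EpiLC, from a list chosen with earlier results of these data known. They passed the filter only through the dCD EpiLC libraries. Their p values are thus given as a description and are not read as support. All 4 transcripts stayed below 1 in all 6 libraries other than dCD EpiLC. Of the 13 that passed the filter, the 11 that did so only through the dCD EpiLC libraries stayed below 1 in EpiSC, where a call was hardly possible. In EpiSC, 12 of the 13 were not called, a count largely set by the filter. The exception was Ddit4l, which encodes an inhibitor of mTOR signalling, with 19.4 and 22.8 in dCD EpiSC, against 13.9 and 9.74 in WT EpiSC (log2 difference 0.80 ± 0.18 SE, limma adjusted p = 0.0297). That call was lost without any 1 of 5 libraries, namely EpiLC WT replicate 1 or 2, EpiSC dCD replicate 1 or 2, or EpiSC WT replicate 2, with adjusted p up to 0.192, and with no filter. In EpiLC Ddit4l had 19.3 and 16.0 in dCD cells, against 15.0 and 15.5 in WT cells, and was not called.

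**Figure D4:**
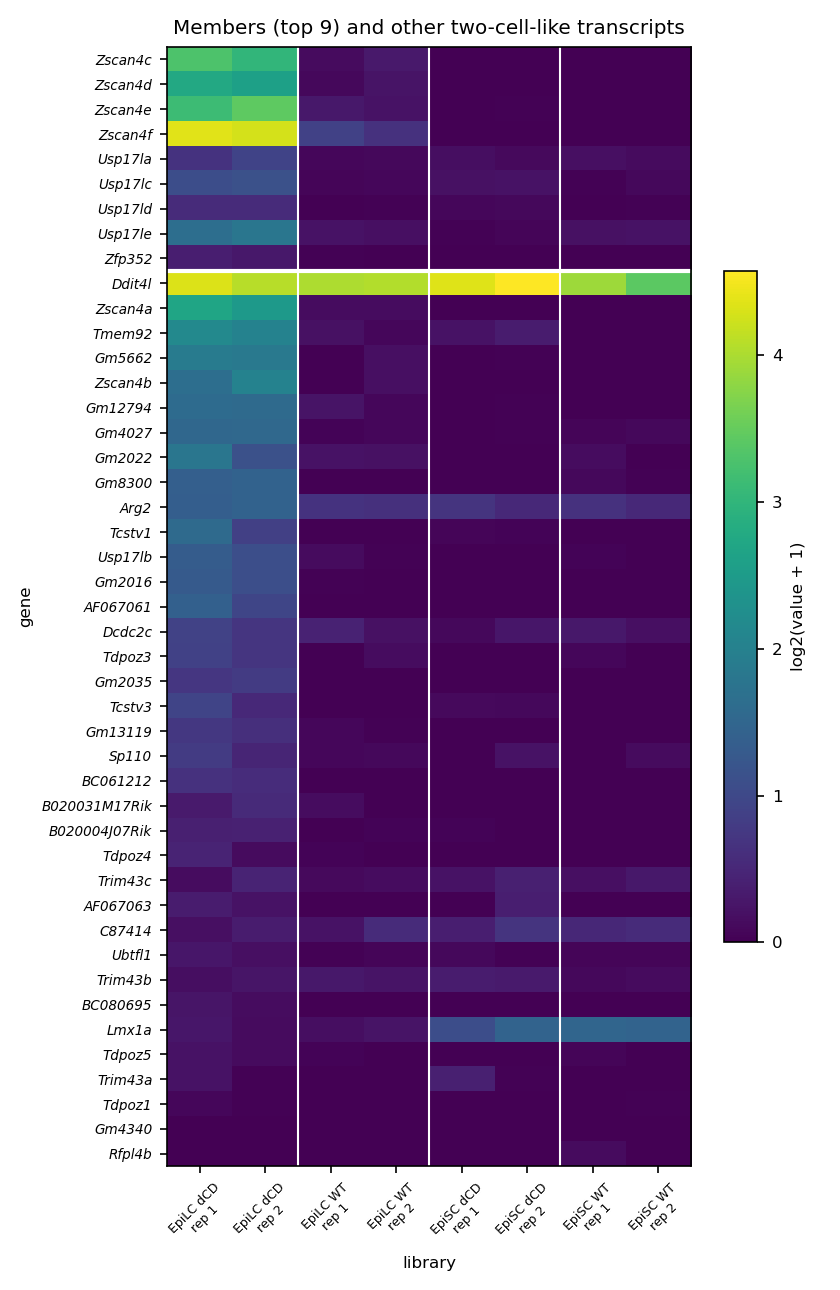
Level as log2(value + 1) (colour) of the 9 genes (above the white line) and of the other listed two-cell-like transcripts that were above 0 in some library (below it, by their mean in dCD EpiLC), in the 8 libraries. The first 2 columns, dCD EpiLC, carry most of the colour, whereas Ddit4l had a value of 9.74 or more in all 8 libraries.

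The genes that act upstream of the two-cell-like state were read next. Duxf3, a gene of the DUX family, had 0.153 and 0.260 in dCD EpiLC, against 0.0165 and 0.0425 in WT EpiLC, below the filter and so not tested. In EpiSC it was listed at 0 in both dCD libraries, against 0.0179 and 0.0167 in WT EpiSC. Dppa2, a chromatin factor that in mouse embryonic stem cells promotes Dux expression, rose to 76.4 and 69.6 in dCD EpiLC, against 48.6 and 47.6 in WT EpiLC (log2 difference 0.59 ± 0.12 SE, limma adjusted p = 0.0274). In EpiSC it fell to 0.853 and 1.19 in dCD cells, against 3.26 and 3.18 in WT cells (log2 difference -1.07 ± 0.12 SE, limma adjusted p = 0.00275). The EpiSC call of Dppa2 held without each library, and the EpiLC call did not: it was lost without EpiLC dCD replicate 1, EpiLC WT replicate 1 or 2, or EpiSC WT replicate 1 or 2, with adjusted p up to 0.159, and also with a constant of 0.1, with no filter, with each stage fitted alone, or when each library was rescaled to 1 common sum. Nelfa, a subunit of the negative elongation factor, fell to 37.8 and 35.3 in dCD EpiSC, against 49.3 and 48.0 in WT EpiSC (log2 difference -0.40 ± 0.09 SE, limma adjusted p = 0.0249), a call lost without any 1 of the 4 EpiSC libraries or either EpiLC WT library, with adjusted p up to 0.178, or on rescaling. In EpiLC Nelfa had 48.0 and 45.4 in dCD cells, against 47.2 and 46.9 in WT cells. Trp53, which encodes p53, had 209 and 190 in dCD EpiLC, against 197 and 198 in WT EpiLC, and was not called at either stage. Of the 3 activators tested, 1 was thus higher in EpiLC and 2 were lower in EpiSC. Over all genes tested, 7.56% were called higher in EpiLC and 6.91% lower in EpiSC. With 3 genes these counts are not read further.

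Among 23 tested genes that repress the two-cell-like state, the median log2 difference in EpiLC was -0.09, against 0.03 over all genes tested. In EpiLC 1 of the 23 rose and 0 fell, against 7.56% and 2.57% of all genes tested. It was Zfp42 (REX1), also a marker of naive pluripotency, with 29.3 and 27.4 in dCD EpiLC, against 13.998 and 13.98 in WT EpiLC (log2 difference 0.97 ± 0.15 SE, limma adjusted p = 0.00979). In EpiSC 2 of the 23 fell and 0 rose, against 6.91% and 7.57% of all genes tested. Zfp42 had 0.500 and 0.956 in dCD EpiSC, against 3.10 and 2.97 in WT EpiSC (log2 difference -1.24 ± 0.15 SE, limma adjusted p = 0.00320). L3mbtl2, a subunit of a variant Polycomb complex, had 49.6 and 47.2 in dCD EpiSC, against 63.2 and 61.9 in WT EpiSC (log2 difference -0.36 ± 0.08 SE, limma adjusted p = 0.0294). The EpiLC call of Zfp42 was lost without EpiLC WT replicate 1 or 2 (adjusted p up to 0.0795) or with a constant of 0.1, and that of L3mbtl2 without any 1 of the 4 EpiSC libraries or either EpiLC WT library (adjusted p up to 0.199) or on rescaling. Kdm1a (LSD1, a histone demethylase) had 110.1 and 115 in dCD EpiLC, against 101 and 98.6 in WT EpiLC, and Smchd1, a chromosomal protein of silenced loci, had 36.2 and 37.0 in dCD EpiLC, against 44.5 and 39.8 in WT EpiLC. Sumo2, the modifier of SUMOylation, had 887 and 669 in dCD EpiLC, against 959 and 1079 in WT EpiLC. These 3 genes were not called, with limma adjusted p between 0.184 and 0.276.

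Genes of telomere maintenance and recombination, the process ZSCAN4 is known for, showed 0 calls among 9 tested in EpiLC with limma, and 0 had an unadjusted p under 0.05. Over all genes tested, 7.56% were called higher and 2.57% lower in EpiLC. Against such shares, 0 of 9 is not read as a result about these genes. The telomerase gene Tert had 3.45 and 3.67 in dCD EpiLC, against 4.85 and 3.59 in WT EpiLC. Atrx, a chromatin remodeller, had 22.1 and 86.9 in dCD EpiLC, against 66.4 and 41.0 in WT EpiLC, and its partner Daxx, a histone chaperone, had 12.4 and 4.77 in dCD EpiLC, against 4.71 and 4.76 in WT EpiLC. In both genes dCD replicate 1 stood apart from dCD replicate 2. Terf2, which binds the telomere repeat, had 20.2 and 19.3 in dCD EpiLC, against 18.5 and 19.9 in WT EpiLC. In EpiSC Terf1, another protein bound to the telomere repeat, fell to 105.5 and 110.5 in dCD EpiSC, against 151 and 163 in WT EpiSC (log2 difference -0.53 ± 0.09 SE, limma adjusted p = 0.0119). The Terf1 call was lost without any 1 of the 4 EpiSC libraries, with adjusted p up to 0.124, or on rescaling.

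Markers of other states moved with genotype in the same EpiLC libraries. Over all genes tested with the filter, 7.56% rose and 2.57% fell in EpiLC, and 7.57% rose and 6.91% fell in EpiSC. Of 12 naive pluripotency genes tested with the filter, 10 rose and 0 fell in EpiLC. With limma and no filter on level, 5 of the 16 measured rose and 0 fell. The summed level over the 16 was 265 to 292 in dCD EpiLC, against 121 in both WT EpiLC libraries. None of the 16 was listed at 0 in both libraries of a group. In EpiSC 5 of the 12 rose and 2 fell, with sums of 186 to 188 in dCD EpiSC and 139 to 140 in WT EpiSC. Of 9 fibroblast feeder genes tested, 3 fell, 0 rose and 6 were not called in EpiLC. Their list summed to 20.5 to 25.2 in dCD EpiLC and 74.3 to 79.0 in WT EpiLC. Col3a1, with 1.15 and 2.43 in dCD EpiLC, against 44.1 and 40.8 in WT EpiLC, made up most of that difference. Of 8 trophoblast genes tested, 3 rose and 1 fell in EpiLC, with sums of 30.7 to 38.8 in dCD EpiLC and 15.8 to 18.2 in WT EpiLC. The 12 oocyte genes did not pass the filter and summed to 2.75 to 3.78 in dCD EpiLC and 2.02 to 2.05 in WT EpiLC. Of 11 formative epiblast genes tested, which mark the labelled EpiLC stage, 2 rose and 1 fell in EpiLC, with sums of 1087 to 1344 in dCD EpiLC and 1393 to 1596 in WT EpiLC. Of 11 genes of the primed epiblast and primitive streak, 2 rose and 1 fell in EpiLC and 5 rose and 2 fell in EpiSC, and of 6 extraembryonic endoderm genes 0 were called in EpiLC with limma (2 at an unadjusted p under 0.05), while 4 rose and 1 fell in EpiSC. The part of these markers in the levels of the 9 genes was not tested.

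Few neighbours of the 9 genes were expressed. Within 500 kb of the Zscan4 cluster, 93 other genes were listed and 2 passed the filter, Zik1 and Gm45551. Zik1, a zinc finger gene, had 5.47 and 8.28 in dCD EpiLC, against 10.4 and 9.47 in WT EpiLC, and Gm45551, which lies inside the cluster, had 1.83 and 1.28 in dCD EpiLC, against 0.527 and 0.724 in WT EpiLC. With limma 0 of the 2 were called at either stage, although both had an unadjusted p under 0.05 in EpiLC (adjusted p = 0.155 for Zik1 and 0.0703 for Gm45551) and neither did in EpiSC. Within 500 kb of the Usp17l cluster, 182 were listed and 7 passed the filter, of which 2 rose in EpiLC and 0 were called in EpiSC, where 0 had an unadjusted p under 0.05. Over all genes tested, 7.56% rose in EpiLC. Trim12c, a tripartite motif gene between Usp17l copies, had 15.2 and 20.3 in dCD EpiLC, against 8.56 and 6.84 in WT EpiLC (log2 difference 1.10 ± 0.16 SE, limma adjusted p = 0.00886), a call lost without EpiLC WT replicate 2 (adjusted p = 0.0653), with no filter, on rescaling or with each stage fitted alone (adjusted p = 0.0948). Trim34b had 2.46 and 3.35 in dCD EpiLC, against 1.41 and 1.44 in WT EpiLC (log2 difference 0.68 ± 0.15 SE, limma adjusted p = 0.0362), a call that held in 1 of 8 fits without 1 library, with adjusted p up to 0.188, and that was also lost with no filter, quantile normalization, rescaling or each stage fitted alone. None of the 4 neighbours of Zfp352 passed the filter.

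The genes with the pattern most like each family were ranked by Pearson's r of log2(value + 1) over the 8 libraries, among 1202 genes that spanned at least 2 log2 units. The libraries fall into 4 groups of 2, so r describes the likeness of group levels and carries no p. Nearest to the Zscan4 sum were Phf11d (r = 0.997) and Triml1 (r = 0.996), a tripartite motif family gene. Phf11d had 6.77 and 5.495 in dCD EpiLC, against 0.802 and 0.670 in WT EpiLC, and Triml1 had 7.98 and 7.77 in dCD EpiLC, against 0.889 and 1.17 in WT EpiLC. They were followed by the chromosome 10 genes Gm6763 and Gm8764, listed with identical values of 24.3 and 19.3 in dCD EpiLC, against 0.336 and 0.341 in WT EpiLC, and by Rhox5, a homeobox gene of the X chromosome, with 99.1 and 71.9 in dCD EpiLC, against 10.1 and 12.6 in WT EpiLC. Gm20765, Gm21312, Gm21761, Zscan4-ps2 and Rhox6 completed the 10, all with r = 0.991. Nearest to the Usp17l sum were Obox4-ps28 (r = 0.998), a pseudogene of the oocyte homeobox family with 3.83 and 4.36 in dCD EpiLC, against 0.0533 and 0.0379 in WT EpiLC, then Gm11543, Tmem72, Gm5039 and Zscan4b (r between 0.993 and 0.996). Nearest to Zfp352 were Gm18765 (r = 0.999), with 3.41 and 2.01 in dCD EpiLC, against 0.0858 and a listed 0 in WT EpiLC, then D13Ertd608e, Gm21293, Gm21304 and Rhox6 (r between 0.993 and 0.996).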

How the data were processed

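Bulk polyA RNA-seq (TruSeq stranded kit) of WT and dCD R1 cells was analysed in 8 libraries. The deposited signal per gene was made by the authors with kallisto and sleuth on an Ensembl annotation of mm10 (GRCm38). It is TPM by header multiplied by 1 factor per library, as column sums differ and 1 exceeds the total TPM allows. The design had assumed plain TPM. Their versions: not given in the sources used here. Depth per library is unknown, since such values do not hold it. The 6 columns for embryonic stem cells match no sample in the labels and were left out.

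The members and gene lists were chosen with earlier results of these data known. Symbols and positions came from the GENCODE annotation of GRCm38 (32013 of 32334 genes). Values were taken as log2(value + 1). The filter required 1 or more in any 2 libraries (12717 genes). Group means were fitted over all 8 libraries in limma 3.58.1 (R 4.3.3, eBayes with trend), with Benjamini-Hochberg adjustment over all genes and calls at an adjusted p under 0.05. Single members came from a fit with all 9 added (12720 genes), and family sums from a fit with 1 summed row per family (12714 rows). On simulated data with 200 changed genes, 58 of 100 changes of log2 1 and 86 of 100 of log2 2 were recovered in EpiLC, and 62 and 89 of 100 in EpiSC, with 9 and 10 false calls. Alternatives varied the pseudocount, filter, scaling, stage-wise fit, replicate block and libraries left out.

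The genes named are the 9 members, the 4 list genes with the smallest p in EpiLC and up to 4 called in EpiSC per list, all activators with a row, those most like the families, called neighbours within 500 kb, and Kmt2c and Kmt2d. Marker lists of other cell states are given as counts and sums, with single values for Col3a1. The EpiSC result of 1 gene of the telomere list is not reported here. Sequences were compared in Python 3.11.15 with Biopython 1.88. The number of libraries, 2 per group, limits the precision.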

Additional observations from a re-analysis of the deposited data

Results flagged for a closer look

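Usp17le had opposite orders of genotype at the 2 stages. Its mean was 0.0298 in dCD EpiSC and 0.159 in WT EpiSC, and 2.30 in dCD EpiLC and 0.153 in WT EpiLC. Every dCD library lay above WT in EpiLC and below WT in EpiSC. The EpiLC order was used by the selection. Of all genes above 0 in EpiSC, 28.1% had both dCD values below both WT values. Usp17le had at most 0.169 in EpiSC and was not called there (limma adjusted p = 0.374). This difference between stages was not tested, because the EpiLC contrast chose the gene.

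Some genes named in the two-cell-like, activator, repressor and telomere lists passed the limma interaction test, which compares the dCD effect between stages. Other genes of these and the marker lists passed as well, so no count is read. On the log2 scale the dCD effect in EpiSC less that in EpiLC was -1.66 for Dppa2 (adjusted p = 0.00289), -2.21 for Zfp42 (adjusted p = 0.00223) and -0.53 for Terf1 (adjusted p = 0.0495). Dppa2 and Zfp42 were called in opposite directions at the 2 stages. The EpiLC calls of both were lost with a constant of 0.1 or with a replicate block. It was -2.42 for Zscan4a, -1.68 for Tmem92, -1.76 for Gm5662 and -1.52 for Gm4027, but these 4 entered the fit only through the dCD EpiLC libraries, so a negative value was built in by the filter and is given as a description. Zscan4a shares reads with the Zscan4 members.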

How the results depend on the processing

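In EpiSC no member, family sum or Zfp352 was called under any of 17 alternatives. In EpiLC dCD stayed above WT for all 9 members and both sums under each, an order that the selection itself used and that is not read as support. With a constant of 0.1 the EpiLC log2 difference was 4.99 for the Zscan4 sum, 3.65 for the Usp17l sum and 1.69 for Zfp352, and 2 two-cell-like transcripts were called in EpiSC. With a constant of 5 these differences were 2.90, 0.87 and 0.070. Quantile normalization gave 0.24 for Zfp352. Without EpiLC WT replicate 2 and EpiLC dCD replicate 1 together, a choice made after seeing the data, they were 4.20, 2.24 and 0.25, with 763 genes called in EpiLC and 3514 in EpiSC. The main counts, 1288 in EpiLC and 1842 in EpiSC, became 1178 in EpiSC with no filter, 689 and 969 with a mean of at least 5, 768 in EpiLC when rescaled to 1 common sum, and 349 and 3511 with each stage fitted alone. The 11 two-cell-like transcripts called in EpiLC became 0 with a mean of at least 5, under which none of the 11 was still tested, and the 1 called in EpiSC became 0 with no filter.

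Replicate numbers did not pair the samples (correlation of same-numbered deviations -0.583 in EpiLC and -0.00662 in EpiSC). With a replicate block, 351 genes were called in EpiLC and 582 in EpiSC, and 0 two-cell-like transcripts in EpiSC. Among named genes it also ended the EpiLC calls of Dppa2 (adjusted p = 0.171), Zfp42 (0.0765), Trim12c (0.0761) and Trim34b (0.147) and the EpiSC calls of Ddit4l (0.129), Nelfa (0.191), L3mbtl2 (0.228) and Terf1 (0.115). The crossed pairing, added after seeing the data, called 2290 in EpiLC and 3021 in EpiSC. Leaving out 1 library at a time gave EpiLC log2 differences of 4.23 to 4.30 for the Zscan4 sum, 2.05 to 2.24 for the Usp17l sum and 0.27 to 0.36 for Zfp352. These ranges are a description, because the EpiLC contrast chose the genes. Leaving out 1 library also gave 358 to 3280 genes in EpiLC, 507 to 3016 in EpiSC, 9 to 11 two-cell-like transcripts in EpiLC and 0 to 1 in EpiSC. In EpiLC the count was 3280 without dCD replicate 2, 358 and 420 without WT replicates 1 and 2, and 760 and 763 without EpiSC WT replicates 1 and 2. In EpiSC it was 3010 and 3016 without EpiLC dCD replicates 1 and 2, 948 and 675 without EpiSC dCD replicates 1 and 2, and 791 and 507 without EpiSC WT replicates 1 and 2. Where a group was left with 1 library, that library was assumed to vary like the others. The causes were not tested.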
